A study of Homo sapiens with 4 samples.

Results

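The heat shock protein (HSP) and DNAJ chaperone genes of SU-DHL-2 cells were examined after Spautin-1 and after vehicle. Genes were chosen by symbol: the HSP70 genes (HSPA), the small heat shock proteins (HSPB), HSPH1, the chaperonin pair HSPD1 and HSPE1, the cytosolic HSP90 genes HSP90AA1 and HSP90AB1, the J proteins (DNAJA, DNAJB and DNAJC), the transcription factors HSF1 and HSF2, and the co-chaperones BAG3, STIP1, AHSA1, CHORDC1 and FKBP4. The endoplasmic reticulum (ER) chaperones HSPA5, DNAJB9, DNAJB11 and DNAJC3 were left out. Of 73 genes named this way, 59 had at least 40 reads over the 4 libraries and are described here, among 18033 genes of the whole table with that many reads and 61267 genes listed. They comprise 10 HSPA, 1 HSPB, 4 DNAJA, 8 DNAJB and 24 DNAJC genes and 12 others. All 59 also passed the filter on low counts that preceded testing. The symbols reach beyond the cytosol and mitochondria: HSPA13, DNAJB12, DNAJB14, DNAJC1, DNAJC10 and DNAJC25 were listed as ER-resident, and are also described as a group of their own.

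SU-DHL-2 is an established human cell line from a diffuse large B-cell lymphoma, recorded as wild type. The 2 Spautin-1 libraries came from cells given the compound at 10 µM for 36 h; Spautin-1 is known to block the ubiquitin-specific proteases USP10 and USP13 and, through them, autophagy. The 2 vehicle libraries came from cells given solvent, for which the labels state no time and no solvent. The libraries held 38325536 and 34893634 reads assigned to genes for Spautin-1, and 34115420 and 38362526 for vehicle. The labels do not say that replicates were separate cultures, so p-values reflect no more than the differences among these 4 libraries, and those may be technical. The B-lineage markers CD79A, CD79B, MS4A1, PAX5 and CD22 were read in every library. In CPM (read counts scaled to library size), PAX5 had 151 and 147 with Spautin-1 and 158 and 132 with vehicle, which overlapped. MS4A1 had 629 and 608 CPM with Spautin-1 and 442 and 379 CPM with vehicle, and CD22 had 165 and 153 CPM with Spautin-1 and 92.7 and 83.1 CPM with vehicle. Both were higher in each Spautin-1 library. CD79B was lower in each, at 12.8 and 12.7 CPM with Spautin-1 and 16.9 and 17.1 CPM with vehicle, and CD79A overlapped. The part of these markers in the chaperone results was not tested. Summed markers of T cells and of myeloid cells, 3 genes each, were at most 0.633 CPM in any library. Of 2 markers usually taken as epithelial, EPCAM stood between 45.5 and 54.7 CPM, but KRT8 only between 1.57 and 2.37 CPM. In these bulk libraries, fewer cells with an mRNA and less of it per cell cannot be told apart.

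Chaperones keep other proteins folded. J proteins deliver clients to HSP70 and trigger its ATPase, nucleotide exchange factors such as HSPH1 and BAG3 release them, and STIP1 bridges HSP70 to HSP90, which finishes the maturation of kinases, receptors and transcription factors. In mitochondria, the HSP70 protein HSPA9 and the HSPD1-HSPE1 chaperonin do comparable work. Many of these genes answer proteotoxic stress together because the transcription factor HSF1 binds repeated GAA and TTC units, called heat shock elements, in their promoters; B-cell lymphomas are known for a high demand on this system.

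Promoter sequences are shown for 5 of the 7 called chaperone genes whose windows hold the longest heat shock element searched for: both that were higher, and of the 5 that were lower DNAJA1, HSPA8 and HSP90AA1, picked for their abundance after values were seen. The others, CHORDC1 and DNAJB6, were lower too. The windows run from 250 bases before to 50 after a RefSeq start site (GRCh38.p14), on the gene's own strand. Capitals mark matches to GAANNTTC or TTCNNGAA (2 units) and to GAANNTTCNNGAA or its reverse complement TTCNNGAANNTTC (3 units), which overlap one another. HSPA6 (chr1:161524290-161524589, + strand) and HSP90AB1 (chr6:44247693-44247992, + strand) were higher with Spautin-1, and DNAJA1 (chr9:33025023-33025322, + strand), HSPA8 (chr11:123062087-123062386, - strand) and HSP90AA1 (chr14:102086995-102087294, - strand) were lower.
HSPA6: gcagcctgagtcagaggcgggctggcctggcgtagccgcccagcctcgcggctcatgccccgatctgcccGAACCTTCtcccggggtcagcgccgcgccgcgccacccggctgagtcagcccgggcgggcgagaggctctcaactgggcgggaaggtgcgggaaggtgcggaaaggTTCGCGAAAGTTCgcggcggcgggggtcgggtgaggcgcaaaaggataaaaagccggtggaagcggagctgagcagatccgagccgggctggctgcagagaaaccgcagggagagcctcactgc
HSP90AB1: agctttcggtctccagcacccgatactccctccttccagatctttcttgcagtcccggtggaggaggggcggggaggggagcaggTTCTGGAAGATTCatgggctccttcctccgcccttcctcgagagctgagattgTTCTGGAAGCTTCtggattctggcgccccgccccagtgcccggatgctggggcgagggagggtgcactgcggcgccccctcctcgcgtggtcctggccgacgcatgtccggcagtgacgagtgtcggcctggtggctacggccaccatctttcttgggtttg
DNAJA1: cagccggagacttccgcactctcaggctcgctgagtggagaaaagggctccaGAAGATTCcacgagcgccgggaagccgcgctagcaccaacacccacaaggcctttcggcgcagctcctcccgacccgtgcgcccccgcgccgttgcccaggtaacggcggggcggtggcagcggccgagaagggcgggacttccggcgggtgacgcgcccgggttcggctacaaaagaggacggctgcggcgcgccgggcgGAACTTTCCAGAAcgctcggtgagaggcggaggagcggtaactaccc
HSPA8: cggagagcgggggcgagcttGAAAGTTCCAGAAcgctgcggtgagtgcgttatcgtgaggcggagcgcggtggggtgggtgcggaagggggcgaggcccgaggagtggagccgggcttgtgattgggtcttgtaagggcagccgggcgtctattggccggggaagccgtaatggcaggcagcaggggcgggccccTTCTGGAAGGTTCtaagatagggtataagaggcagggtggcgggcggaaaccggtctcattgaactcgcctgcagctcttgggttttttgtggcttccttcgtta
HSP90AA1: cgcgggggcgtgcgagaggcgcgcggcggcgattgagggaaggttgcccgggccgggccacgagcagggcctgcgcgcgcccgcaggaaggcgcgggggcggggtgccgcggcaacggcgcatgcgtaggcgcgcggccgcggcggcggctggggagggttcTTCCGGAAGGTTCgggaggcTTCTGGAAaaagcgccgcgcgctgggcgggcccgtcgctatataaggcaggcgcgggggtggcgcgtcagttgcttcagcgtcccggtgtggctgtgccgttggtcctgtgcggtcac

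With Spautin-1, 10 of the 59 genes were higher and 14 were lower than with vehicle (quasi-likelihood test of edgeR, p under 0.05 adjusted by Benjamini-Hochberg over the 18368 genes tested), and 35 did not pass. Over all genes tested, 11.5% were called higher, 10.5% lower and 22% either way. Among protein-coding genes with 40 or more reads these shares were 13.6%, 11.2% and 24.7%. Calls were more frequent among abundant mRNAs: at 100 CPM or more over the 4 libraries, 20.5% of genes were higher, 23% lower and 43.5% either way. Of the 23 chaperone genes at that level, 2 were higher, HSP90AB1 and the J protein DNAJA2, and 11 were lower, so that 56.5% were called. The median log2 fold change of the 59 genes was -0.02, against -0.01 over all genes tested. Both Spautin-1 libraries lay above both vehicle libraries in 18 chaperone genes (30.5%), against 30.8% of all genes tested, and below both in 25 (42.4%), against 30.6% of all genes tested. Fold changes were modest for most: among called genes, the increases reached 2-fold in 3 (HSPA6, DNAJB5 and HSPA13) and the decreases in 1 (DNAJA1), while 7.2% of all genes tested were called with at least a 2-fold change.

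**Figure D1:**
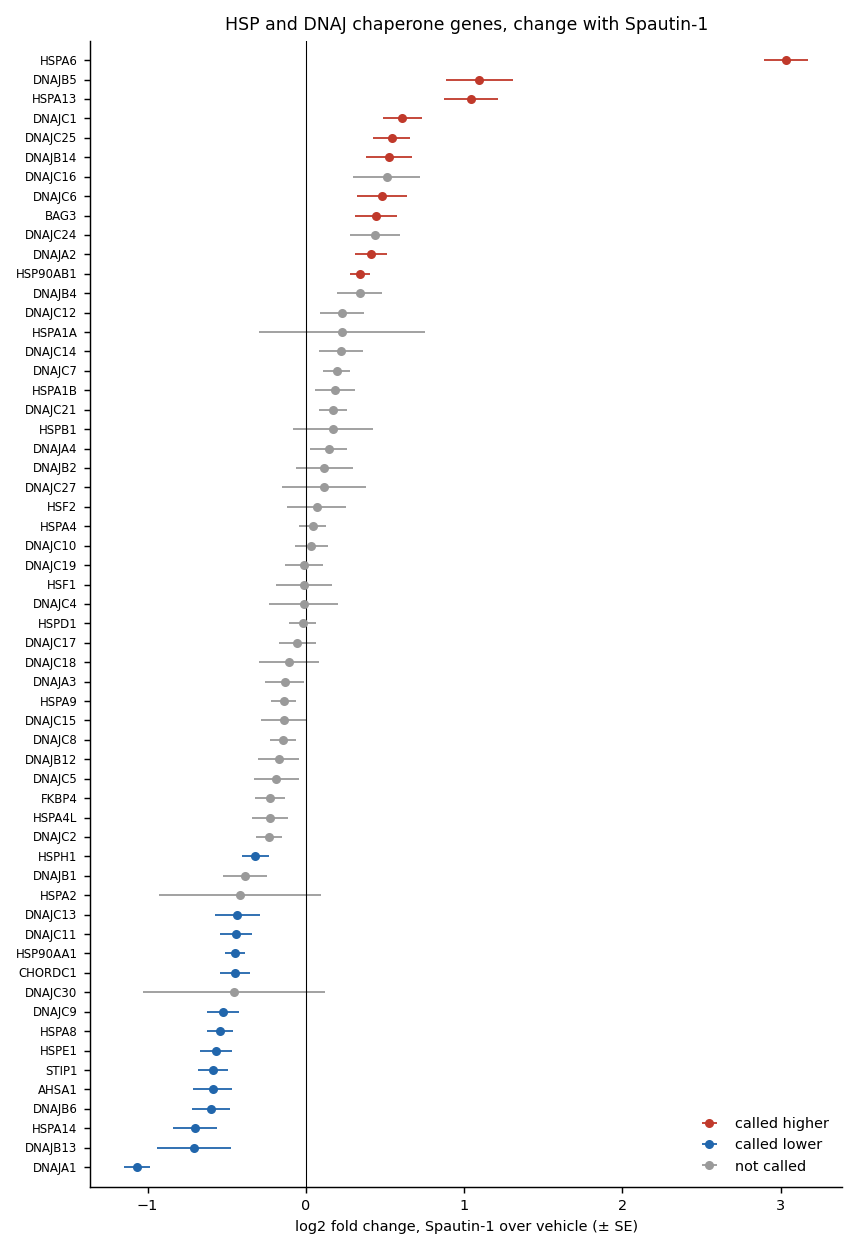
Log2 fold change (Spautin-1 over vehicle, x axis) with its SE for 58 chaperone genes, ordered by size; DNAJC28 is left out because 1 library had no read. Red points were called higher and blue points lower by edgeR. HSPA6 stands alone at 3.03 on the right, and DNAJA1 is lowest at -1.06.

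The counts changed with any 1 library left out: they fell without a Spautin-1 library and rose without a vehicle library. With Spautin-1 replicate 1 left out, 4 chaperone genes were higher and 12 lower, and with Spautin-1 replicate 2 left out, 4 and 7. Leaving out vehicle replicate 1 gave 17 higher and 16 lower genes and a median of -0.12, and leaving out vehicle replicate 2 gave 14 and 15. With 1 library left in a group, that library is assumed to vary like the other group. A call lost without either library of a group was lost with each of them left out in turn. Among calls lost without either Spautin-1 library, the log2 fold change of DNAJC25 stayed at 0.54. That of BAG3 was 0.53 without Spautin-1 replicate 1 and 0.34 without Spautin-1 replicate 2. 11 genes were called in each of 16 alternative fits: HSPA6, HSP90AB1, HSPA13 and DNAJB5 higher, and DNAJA1, HSP90AA1, HSPA8, STIP1, HSPE1, AHSA1 and DNAJB6 lower. In 38 of the 59 genes (a count not made over all genes tested), the vehicle libraries differed from each other by more than the Spautin-1 libraries. That difference ran with GC content across these genes (Pearson r = 0.43 and Spearman rho = 0.502 over 59 genes that share the same pair of libraries), with HSPB1, HSF1 and AHSA1 higher in vehicle replicate 2 and DNAJB14 and DNAJC13 higher in vehicle replicate 1. GC content ran less with the log2 fold change itself (Pearson r = 0.0982, Spearman rho = -0.0626, 59 genes), and a fit with a GC offset called 9 chaperone genes higher and 16 lower.

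The cytosolic HSP90 genes moved in opposite directions. HSP90AA1 (chromosome 14, 102080742 to 102139699, GRCh38), the stress-inducible form, had 6972 and 6871 CPM with Spautin-1, against 9445 and 9402 CPM with vehicle. HSP90AB1 (chromosome 6, 44246166 to 44253888), the constitutive form, had 10739 and 10538 CPM with Spautin-1, against 8539 and 8237 CPM with vehicle. The groups were separate for both genes, and replicates lay close together. HSP90AA1 fell 1.36-fold (log2 fold change -0.45 ± 0.06 SE, edgeR adjusted p = 0.0005) and HSP90AB1 rose 1.27-fold (0.34 ± 0.06, adjusted p = 0.00251). Their summed level was 17710 and 17409 CPM with Spautin-1, and 17984 and 17639 CPM with vehicle, so the sums overlapped while the make-up differed. Exons of WDR20 lie opposite 3.87% of the exonic bases of HSP90AA1, and the strand setting of the counting is unknown, so reads of such pairs cannot be told apart.

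HSP90AA1 supplied 39.4% (95% Wilson interval 39.2 to 39.5) and 39.5% (39.3 to 39.6) of the reads of this pair in the Spautin-1 libraries, against 52.5% (52.4 to 52.6) and 53.3% (53.2 to 53.4) in the vehicle libraries; the intervals cover counting error only. Scaled to exonic length, the level of HSP90AA1 was 0.38 and 0.381 of that of HSP90AB1 with Spautin-1, and 0.647 and 0.667 with vehicle. On that scale (CPM per kilobase) HSP90AB1 and HSP90AA1 were the most abundant chaperone mRNAs in both groups, at means of 3570 and 1358 with Spautin-1 and 2815 and 1849 with vehicle. Both genes have many pseudogene copies, and no source used here says how reads matching several places were counted. The exonic lengths merge all annotated transcripts, so levels per kilobase are too low for genes with long rare exons.

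**Figure D2:**
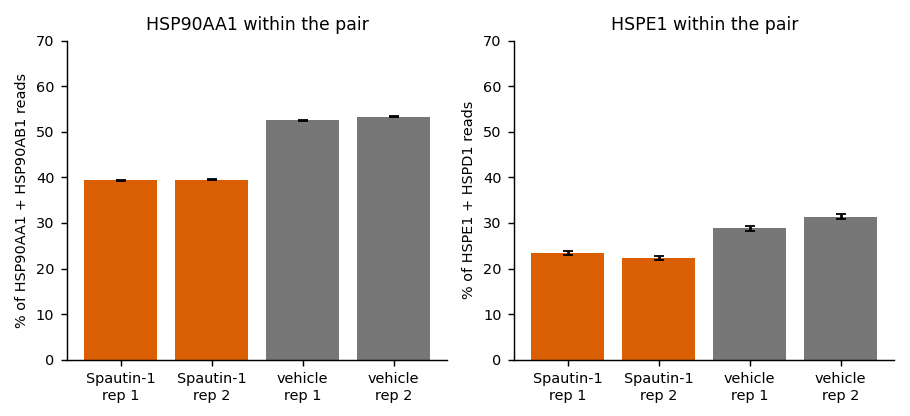
Share (%, y axis) of HSP90AA1 reads in HSP90AA1 plus HSP90AB1 reads (left) and of HSPE1 reads in HSPE1 plus HSPD1 reads (right), for each library; error bars are 95% Wilson intervals of counting error. HSP90AA1 is at 39.4% and 39.5% in the Spautin-1 libraries and at 52.5% and 53.3% in the vehicle libraries, and HSPE1 is at 23.4% and 22.2% with Spautin-1, against 28.8% and 31.4% with vehicle.

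The HSP70 and HSP110 genes also moved in both directions, with 2 of 11 higher, 3 lower and a median log2 fold change of -0.14. These shares were 18.2% and 27.3%, against 11.5% and 10.5% of all genes tested. HSPA6 (chromosome 1, 161524540 to 161526894), a strictly stress-inducible HSP70 that rodents lack, had 60.2 and 64.5 CPM with Spautin-1, against 7.28 and 7.95 CPM with vehicle. Every Spautin-1 value was far above every vehicle value. The increase was 8.18-fold (log2 fold change 3.03 ± 0.14, edgeR adjusted p = 9.81e-08), and the log2 fold change was at least 2.97 in each of the 16 alternative fits. HSPA8 (chromosome 11, 123057489 to 123063230), the constitutive HSC70, had 901 and 887 CPM with Spautin-1, against 1279 and 1322 CPM with vehicle, and fell 1.46-fold (-0.54 ± 0.08, adjusted p = 0.000703). Per kilobase, HSPA8 remained the more abundant by far, at 184 with Spautin-1 and 268 with vehicle, while HSPA6 was at 26.5 with Spautin-1 and 3.23 with vehicle. Other genes, among them small nucleolar RNA genes, share 3.61% of the exonic bases of HSPA8 on the same strand and 11.5% on the other.

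The other classic inducible HSP70 mRNAs did not follow HSPA6. HSPA1B (chromosome 6, 31827738 to 31830254) had 52.8 and 49.8 CPM with Spautin-1, against 42.1 and 48.2 CPM with vehicle, groups that lay close without overlapping (log2 fold change 0.18 ± 0.12, edgeR adjusted p = 0.327). Without vehicle replicate 2 it was called higher, at 0.29 (edgeR adjusted p = 0.0482). HSPA1A had 37 and 25 reads with Spautin-1, and 19 and 35 with vehicle, and the groups overlapped. HSPA1A and HSPA1B encode nearly the same protein and share long identical stretches, so reads may be split between them or lost, and HSPA1A carried at most 1.85% of the pair's reads in any library. An unnamed gene shares 36.6% of the exonic bases of HSPA1B on the same strand. HSPA6 has a close copy too, the pseudogene HSPA7, which had 14 and 14 reads with Spautin-1, and 6 and 0 with vehicle.

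Among the exchange factors of the HSP110 type, HSPH1 had 609 and 601 CPM with Spautin-1, against 738 and 772 CPM with vehicle, and fell 1.25-fold (log2 fold change -0.32 ± 0.09, edgeR adjusted p = 0.0193). Its call was lost without either Spautin-1 library (edgeR adjusted p = 0.127 and 0.208). HSPA4 gave 0.04 and HSPA4L -0.23 on the log2 scale, and neither passed. HSPA14, an HSP70-like protein of the ribosome-associated complex, had 17.9 and 17.4 CPM with Spautin-1, against 27.5 and 29.7 CPM with vehicle, and fell 1.62-fold (-0.70 ± 0.14, adjusted p = 0.00398). It was not called without Spautin-1 replicate 2 (edgeR adjusted p = 0.0669), when 1 HSP70 or HSP110 gene was lower, and 12.7% of its exonic bases are shared with MSANTD7 on the same strand. Without Spautin-1 replicate 1, 2 of these genes were lower, and with vehicle replicate 2 left out, 3 were higher.

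**Figure D3:**
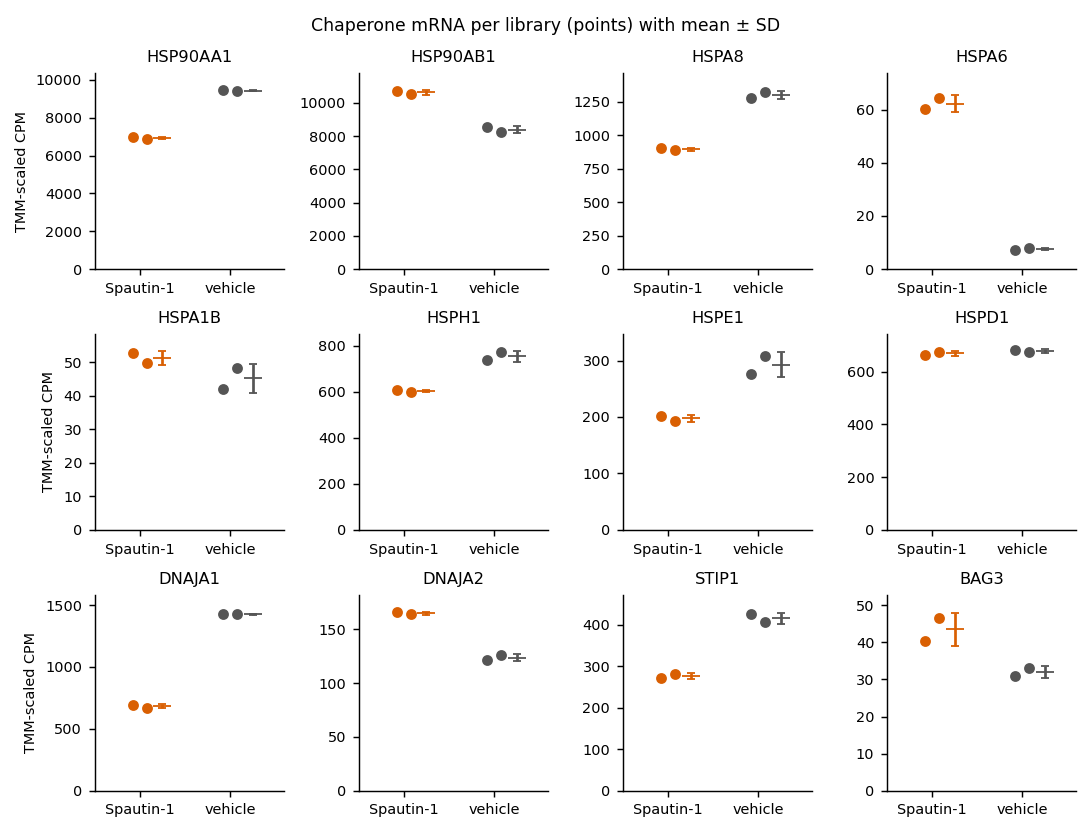
TMM-scaled CPM (y axis, from 0) of 12 chaperone genes in each Spautin-1 library (orange) and vehicle library (dark grey), with the mean ± SD of each group beside the points. HSPA6 is at 60.2 and 64.5 CPM with Spautin-1 and at 7.28 and 7.95 CPM with vehicle, DNAJA1 shows the widest separation downward, and HSPD1 overlaps between groups.

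Of the 8 mitochondrial genes, none was higher and 2 were lower, with a median log2 fold change of -0.14. That is 25% lower, against 10.5% of all genes tested and 23% of those at 100 CPM or more. Either way, 22% of all genes tested were called. HSPE1 (chromosome 2, 197500140 to 197503449), the lid of the chaperonin, had 202 and 193 CPM with Spautin-1, against 277 and 308 CPM with vehicle, and fell 1.48-fold (-0.57 ± 0.10, edgeR adjusted p = 0.00214). Its partner HSPD1 (chromosome 2, 197486584 to 197516737), the barrel, had 664 and 675 CPM with Spautin-1, against 684 and 673 CPM with vehicle. The HSPD1 groups overlapped (log2 fold change -0.02 ± 0.08, adjusted p = 0.901). The pair lies head to head and is usually described as sharing a promoter region. HSPE1 reads were 23.4% and 22.2% of the pair's reads with Spautin-1, against 28.8% and 31.4% with vehicle. HSPE1 shares 10.5% of its exonic bases with the read-through gene HSPE1-MOB4 on the same strand and 7.41% with HSPD1 on the other.

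DNAJC11, a mitochondrial J protein linked to the organisation of the inner membrane, had 235 and 235 CPM with Spautin-1, against 341 and 296 CPM with vehicle, and fell 1.36-fold (-0.44 ± 0.10, edgeR adjusted p = 0.00979). That call was lost without either Spautin-1 library (edgeR adjusted p = 0.0695 and 0.109), when 1 mitochondrial gene was lower. THAP3 lies opposite 11.7% of its exonic bases. HSPA9, the mitochondrial HSP70, had 1181 and 1182 CPM with Spautin-1, against 1315 and 1289 CPM with vehicle, and did not pass (-0.14 ± 0.08, adjusted p = 0.232). DNAJA3, DNAJC15, DNAJC19 and DNAJC30 did not pass either, between -0.45 and -0.01 on the log2 scale. Outside the symbols chosen, 1 of 9 other mitochondrial chaperones and proteases was lower (11.1%, against 10.5% of all genes tested) and none higher. It was GRPEL1, the exchange factor of HSPA9, at 81.6 and 86.0 CPM with Spautin-1, against 128 and 143 CPM with vehicle (-0.70 ± 0.11, edgeR adjusted p = 0.00103). Without vehicle replicate 1, 3 of these 9 were lower, and without vehicle replicate 2, 1 was higher.

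Of the 5 co-chaperones chosen, 3 fell (60%) and 1 rose (20%). Over all genes tested 10.5% were lower and 11.5% higher, and at 100 CPM or more 23% and 20.5%. STIP1, also called HOP, had 272 and 282 CPM with Spautin-1, against 425 and 407 CPM with vehicle, and fell 1.5-fold (log2 fold change -0.59 ± 0.09, edgeR adjusted p = 0.00102); another gene lies opposite 9.67% of its exonic bases. AHSA1, which stimulates the ATPase of HSP90, had 237 and 232 CPM with Spautin-1, against 304 and 402 CPM with vehicle (-0.59 ± 0.12, adjusted p = 0.00572). The vehicle libraries stood apart for AHSA1, and its change was -0.37 without vehicle replicate 2. CHORDC1, an HSP90 partner, had 243 and 237 CPM with Spautin-1, against 334 and 322 CPM with vehicle (-0.45 ± 0.09, adjusted p = 0.00558), and was not called without Spautin-1 replicate 2 (edgeR adjusted p = 0.113). FKBP4, an immunophilin of steroid receptor complexes, had 346 and 369 CPM with Spautin-1, against 434 and 401 CPM with vehicle (-0.22 ± 0.10, adjusted p = 0.112), and was called only without vehicle replicate 2, at -0.28 (edgeR adjusted p = 0.00742).

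BAG3, which couples HSP70 to selective autophagy, went the other way. It had 40.3 and 46.6 CPM with Spautin-1, against 30.8 and 33.1 CPM with vehicle, and rose 1.36-fold (0.44 ± 0.13, edgeR adjusted p = 0.0304). Its call was lost without either Spautin-1 library (edgeR adjusted p = 0.0975 and 0.371). Among 12 other HSP90 co-chaperones, 4 were lower and 1 higher, with a median of -0.29. The 41.7% called compares with 22% of all genes tested and is near the 43.5% of genes at 100 CPM or more. The lower ones were FKBP5, PTGES3 (p23), CACYBP and PPID, between -0.46 and -0.30 on the log2 scale. FKBP5 had 165 and 162 CPM with Spautin-1, against 232 and 205 CPM with vehicle (edgeR adjusted p = 0.0134), and CDC37L1 was higher, with 34.9 and 29.9 CPM with Spautin-1, against 22.9 and 20.5 CPM with vehicle (edgeR adjusted p = 0.0131). Of 7 other HSP70 co-chaperones, 2 were lower, BAG2 and BAG5 (28.6%, against 10.5% of all genes tested), and none was higher. Without either Spautin-1 library none of these genes was called lower, and without vehicle replicate 1, 7 HSP90 and 4 HSP70 co-chaperones were. Without vehicle replicate 2, 2 HSP90 co-chaperones and 1 HSP70 co-chaperone were higher.

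Among the class A J proteins, DNAJA1 and DNAJA2 moved apart. DNAJA1 (chromosome 9, 33025273 to 33039907), a major partner of HSC70 in the cytosol, had 693 and 670 CPM with Spautin-1, against 1424 and 1426 CPM with vehicle. This was the largest called decrease among the chaperone genes, 2.09-fold (log2 fold change -1.06 ± 0.08, edgeR adjusted p = 6.12e-06), and it stayed between -1.14 and -1.03 in the alternative fits. DNAJA2 had 166 and 164 CPM with Spautin-1, against 122 and 126 CPM with vehicle, and rose 1.33-fold (0.41 ± 0.10, adjusted p = 0.0128). The groups did not overlap for either gene, but the call of DNAJA2 was lost without either Spautin-1 library (edgeR adjusted p = 0.169 and 0.137). Per kilobase, DNAJA1 averaged 255 with Spautin-1 and 534 with vehicle. DNAJA4 and DNAJA3 did not pass, at 0.14 and -0.13 on the log2 scale.

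Class B held 2 higher and 2 lower of 8 genes (25% each way, against 11.5% higher and 10.5% lower over all genes tested). DNAJB5 had 7.84 and 8.77 CPM with Spautin-1, against 3.57 and 4.19 CPM with vehicle, and rose 2.14-fold (log2 fold change 1.09 ± 0.21, edgeR adjusted p = 0.00334). DNAJB14, a J protein of the ER membrane that acts in protein degradation, had 55.4 and 55.9 CPM with Spautin-1, against 44.4 and 32.9 CPM with vehicle (0.53 ± 0.15, adjusted p = 0.0232). Its change was 0.33 without vehicle replicate 2, and the call was lost without either Spautin-1 library (edgeR adjusted p = 0.0966 and 0.117). DNAJB6, known for holding polyglutamine proteins soluble, had 212 and 206 CPM with Spautin-1, against 277 and 356 CPM with vehicle, and fell 1.51-fold (-0.60 ± 0.12, adjusted p = 0.00417). DNAJB13, a protein of the ciliary axoneme, had 4.24 and 3.23 CPM with Spautin-1, against 5.59 and 6.63 CPM with vehicle (-0.71 ± 0.24, adjusted p = 0.0494). That call was lost with DESeq2 (adjusted p = 0.0631), limma-voom and robust empirical Bayes, and without vehicle replicate 2 or Spautin-1 replicate 2, and 28.8% of the exonic bases of DNAJB13 lie opposite another gene.

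DNAJB1, the J protein most often used to read out heat shock, did not pass. It had 29.2 and 27.9 CPM with Spautin-1, against 33.5 and 41.3 CPM with vehicle (log2 fold change -0.39 ± 0.14, edgeR adjusted p = 0.0668). It was called lower without vehicle replicate 1 (-0.53), with library size scaling (-0.42), with the replicate block (-0.38) and with the length offset (-0.43). DNAJB2, DNAJB4 and DNAJB12 lay between -0.17 and 0.34 and did not pass. Class B held 1 higher and 2 lower genes with Spautin-1 replicate 1 left out, and 1 and 1 with Spautin-1 replicate 2 left out. It held 3 and 3 with vehicle replicate 1 left out, and 3 and 1 with vehicle replicate 2 left out.

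The 24 class C proteins share a J domain and little else, and 3 were higher and 3 lower, with a median of -0.01. The 12.5% each way is near the shares over all genes tested, 11.5% higher and 10.5% lower. DNAJC1, an ER membrane J protein, had 50.8 and 50.3 CPM with Spautin-1, against 34.9 and 31.3 CPM with vehicle, and rose 1.53-fold (0.61 ± 0.12, edgeR adjusted p = 0.00477). DNAJC25 had 69.2 and 70.5 CPM with Spautin-1, against 46.7 and 49.3 CPM with vehicle (0.54 ± 0.12, adjusted p = 0.00597), and shares 13.8% of its exonic bases with the read-through gene DNAJC25-GNG10. DNAJC6, the auxilin that helps HSC70 strip clathrin from vesicles, had 16.0 and 17.8 CPM with Spautin-1, against 12.3 and 11.9 CPM with vehicle (0.48 ± 0.16, adjusted p = 0.0455). DNAJC1 and DNAJC25 were not called without either Spautin-1 library (edgeR adjusted p between 0.0536 and 0.0914). DNAJC6 also missed the threshold with upper quartile scaling, library size scaling, no filter and the GC offset (edgeR adjusted p between 0.0511 and 0.0649), and without either Spautin-1 library.

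On the lower side of class C, besides DNAJC11, DNAJC9, a chaperone of histones H3 and H4, had 137 and 137 CPM with Spautin-1, against 193 and 200.4 CPM with vehicle, and fell 1.44-fold (-0.52 ± 0.10, edgeR adjusted p = 0.00327). It was not called without Spautin-1 replicate 2 (edgeR adjusted p = 0.0685), and 56.5% of its exonic bases lie opposite FAM149B1. DNAJC13, an endosomal J protein, had 63.4 and 56.9 CPM with Spautin-1, against 92.8 and 69.6 CPM with vehicle (-0.43 ± 0.14, adjusted p = 0.0479). Its change was -0.21 without vehicle replicate 1, and the call was then lost (edgeR adjusted p = 0.115), as it was without either Spautin-1 library. No class C gene was higher without either Spautin-1 library; 2 were lower with Spautin-1 replicate 1 left out and 0 with Spautin-1 replicate 2 left out. Leaving out vehicle replicate 1 gave 9 higher and 4 lower class C genes. The abundant DNAJC8 and DNAJC2, of splicing and of the ribosome-associated complex, were at -0.14 and -0.23 and did not pass. DNAJC24, an adaptor of diphthamide synthesis, was at 0.44 and did not pass. DNAJC7, which binds both HSP70 and HSP90, and the ribosome maturation factor DNAJC21 were at 0.19 and 0.17 and did not pass. Of the 6 nuclear or ribosome-linked members, 2 were lower (HSPA14 and DNAJC9) and none higher, with a median of -0.19. That is 33.3% lower, against 10.5% of all genes tested. The count changed when Spautin-1 replicate 2 or vehicle replicate 1 was left out. DNAJC28 had 8 and 0 reads with Spautin-1, and 12 and 36 with vehicle, too few for a fold.

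Of the 6 genes listed as ER-resident, 4 were higher (HSPA13, DNAJC1, DNAJC25 and DNAJB14), none was lower, and the median was 0.53, against -0.01 over all genes, of which 11.5% were higher. The list is not complete: DNAJC14, DNAJC16 and DNAJC18, which are also placed in the ER membrane, were at 0.22, 0.51 and -0.11 and did not pass. HSPA13 (chromosome 21, 14371115 to 14383484), a truncated HSP70-like protein of the ER, had 15.0 and 15.9 CPM with Spautin-1, against 8.0 and 6.99 CPM with vehicle, and rose 2.06-fold (1.04 ± 0.17, edgeR adjusted p = 0.00122). HSPA13 alone was called without either Spautin-1 library. DNAJC10, an ER reductase, had 144 and 144 CPM with Spautin-1 and 134 and 147 CPM with vehicle, which overlapped. In a list of 10 ER chaperones that includes the 4 genes left out by the rule, 4 were higher and none lower, with a median of 0.20. The 40% higher compares with 11.5% of all genes tested and 20.5% of those at 100 CPM or more. HSPA5 (BiP) had 814 and 815 CPM with Spautin-1, against 589 and 632 CPM with vehicle (edgeR adjusted p = 0.00534), and DNAJB9, its J partner, had 29.3 and 33.3 CPM with Spautin-1, against 13.5 and 16.9 CPM with vehicle (adjusted p = 0.000746). HSP90B1 and DNAJC3 were higher by 0.26 and 0.39 on the log2 scale. In that list 2 genes were higher without Spautin-1 replicate 1 and 1 without Spautin-1 replicate 2. With vehicle replicate 1 left out, 6 were higher and 1 lower, and with vehicle replicate 2 left out, 5 were higher.

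**Figure D4:**
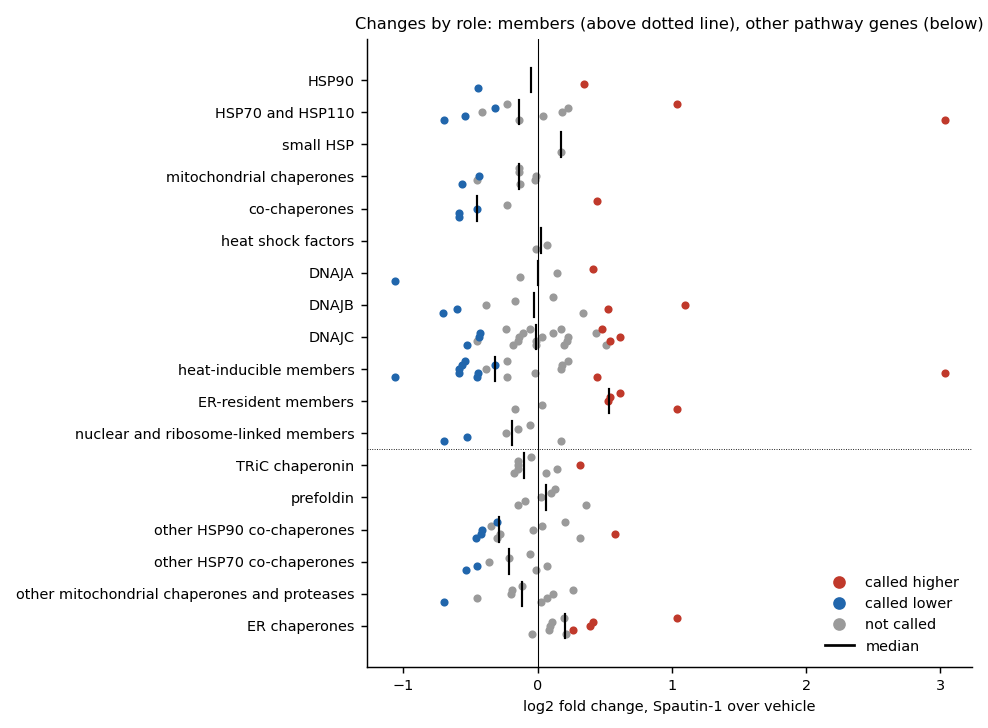
Log2 fold change (x axis) of each gene by role, the chaperone genes described above the dotted line and other genes of the folding pathways below it; bars are medians, and colours give the edgeR call. A gene can stand in 2 rows, and DNAJC28 is left out. The heat-inducible row has a median of -0.32 with HSPA6 far to the right, and the ER-resident row a median of 0.53.

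Of the 17 genes listed as heat-inducible, 8 were lower (47.1%), 2 higher (11.8%) and 7 not called, with a median log2 fold change of -0.32, against -0.01 over all genes. Over all genes tested 10.5% were lower and 11.5% higher, and at 100 CPM or more, 23% were lower. The lower ones were DNAJA1, HSP90AA1, HSPA8, HSPH1, HSPE1, STIP1, AHSA1 and CHORDC1, and the higher ones HSPA6 and BAG3. Leaving out 1 library gave 6 to 10 lower genes; HSPA6 was the 1 called higher without either Spautin-1 library, and 4 were higher without vehicle replicate 2. The list was drawn up with earlier results of these data known, and its counts depend on which genes it holds. HSPA8, described above as constitutive, was listed and was lower (-0.54). HSP90AB1, also described as constitutive, was not listed and was higher (0.34). HSPB1, the 1 small heat shock protein with enough reads, had 15.9 and 20.7 CPM with Spautin-1, and 11.1 and 21.4 CPM with vehicle. The vehicle values enclosed the Spautin-1 values. The log2 fold change was 0.17 ± 0.25 (edgeR adjusted p = 0.678), 0.73 without vehicle replicate 2 (when it was called higher, edgeR adjusted p = 0.000175) and -0.23 without vehicle replicate 1.

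The factors that control these genes did not pass at the mRNA level. HSF1 (chromosome 8, 144291591 to 144314720) had 16.6 and 19.2 CPM with Spautin-1, and 15.1 and 20.9 CPM with vehicle (log2 fold change -0.01 ± 0.18, edgeR adjusted p = 0.971). HSF2 had 10.7 and 14.6 CPM with Spautin-1, and 12.3 and 11.8 CPM with vehicle (0.07 ± 0.18, adjusted p = 0.835). The groups overlapped for both. HSF1 is controlled mainly through its protein, which these libraries do not measure. The TRiC chaperonin, which folds actin and tubulin, had 1 of 8 subunits called, and it was higher. That is 12.5%, against 11.5% higher and 22% either way over all genes tested. That was CCT8, with 333 and 339 CPM with Spautin-1, against 273 and 267 CPM with vehicle (0.32 ± 0.09, edgeR adjusted p = 0.03). It was not called with library size scaling or without either Spautin-1 library; 2 subunits were higher without vehicle replicate 1, and 1 was lower without vehicle replicate 2. None of 6 prefoldin genes passed, with changes between -0.15 and 0.36, and 1 was called higher and 1 lower without vehicle replicate 1. Also, 1 was called higher without vehicle replicate 2, with the GC offset and with the replicate block.

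Summed over the 59 genes, chaperone reads made up 2.82% of all reads in each Spautin-1 library, against 3.16% and 3.1% in the vehicle libraries. HSP90 reads were 61.5% and 61.3% of these with Spautin-1, against 57.9% and 57.3% with vehicle. The 36 J proteins together had 5435 and 5303 CPM with Spautin-1, against 6343 and 6328 CPM with vehicle. Without DNAJA1 the sums were 4742 and 4633 CPM with Spautin-1, against 4919 and 4902 CPM with vehicle, so most of the difference lay in that 1 gene. The 11 HSP70 and HSP110 genes had 3584 and 3598 CPM with Spautin-1, against 4193 and 4222 CPM with vehicle, and the 5 co-chaperones had 1138 and 1166 CPM with Spautin-1, against 1527 and 1564 CPM with vehicle. These sums are dominated by their most abundant genes and were not tested.

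Promoter letters were compared with the calls. RefSeq gave 75 promoter windows for 54 of the 59 genes, 16 of which had more than 1 window. A heat shock element of 3 units was found in 8 of these 54 genes (14.8%) and in 0.608% of the 27305 genes with a window; per window the shares were 10.7% and 0.49%. The 8 genes were HSPA6 and HSP90AB1, called higher, DNAJA1, HSP90AA1, HSPA8, CHORDC1 and DNAJB6, called lower, and HSPD1, not called. By call, that is 2 of 9 higher, 5 of 13 lower and 1 of 32 uncalled genes. Abundance differed by call too. Over the 59 genes, the median vehicle level was 32.5 CPM for higher, 323 CPM for lower and 30.2 CPM for uncalled genes. The part of abundance in this split was not tested. The split also depends on the windows. HSPD1 lies head to head with HSPE1, which was lower. The HSPD1 window with the match (chromosome 2, 197499791 to 197500090) ends before the HSPE1 window begins, at 197500129. The match was therefore counted for HSPD1 alone. Both the called gene that rose most, HSPA6, and the one that fell most, DNAJA1, hold it. Counted from 0 at the start site, it lies at -74 to -62 in the HSPA6 window, at 3 to 15 in DNAJA1 and at -88 to -76 in HSP90AA1. The HSPA8 window holds it at -230 to -218 and -55 to -43, and the HSP90AB1 window at -165 to -153 and -112 to -100. The start sites of HSP90AA1, HSPA8 and HSP90AB1 lie inside longer annotated genes. The 2-unit form was in 35.2% of the chaperone genes and 16.2% of all genes. Among the uncalled genes that hold it were HSPA1A, HSPA1B, DNAJB1 and HSPB1.

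An ER stress element, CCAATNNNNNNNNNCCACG searched on both strands, was in none of the 54 genes, HSPA13, DNAJB14 and DNAJC25 included, in 4 of the 10 ER chaperones and in 0.0916% of all genes. A match describes letters in a window and not a bound site, and no match says only that these letters are not in that window. DNAJC1, DNAJC24, FKBP4, HSF1 and HSPA14 were not in this comparison.

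**Figure D5:**
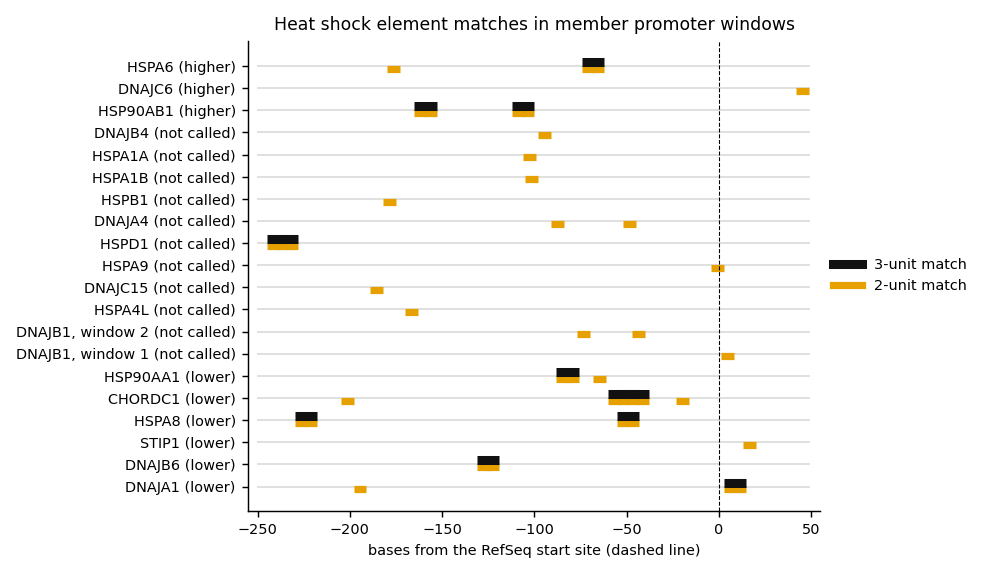
Heat shock element matches (black, 3 units; yellow, 2 units) by distance in bases from a RefSeq start site (x axis, dashed line at 0), for every chaperone gene window with a match, ordered by log2 fold change from HSPA6 at the top to DNAJA1 at the bottom. Black bars stand at 8 genes, 2 called higher, 5 lower and 1 not called.

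Of the 73 genes named by the rule, 14 had fewer than 40 reads, 5 of them none: HSPA12A, HSPB3, HSPB8, HSPB9 and DNAJB3. Just outside the minimum lay HSPA7 with 34 reads and HSPA12B with 32. HSPA12B had 6 and 6 reads with Spautin-1 and 10 and 10 with vehicle. Just inside lay DNAJC28 with 56.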

How the data were processed

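Stranded mRNA libraries were made with a VAHTS kit from TRIzol RNA, per the labels' protocols. Trimmomatic 0.36, featureCounts of Subread 1.5.1, edgeR 3.12.1 and GRCh38 are named in the submitters' processing notes; no source used here names the aligner, strand setting, annotation release or treatment of reads mapped to several places. The authors deposited raw counts of reads per gene, with exonic lengths per the file headers.

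Counts were tested in R 4.3.3 with edgeR 4.0.16 on the whole table (filterByExpr, minimum count 10 and minimum total count 15; TMM scaling; quasi-likelihood F test, two-sided, Benjamini-Hochberg adjustment, threshold 0.05). SEs are the log2 fold change divided by the square root of F. CPM values are TMM-scaled, and fold changes come from the fit. The chaperone genes and lists were chosen with earlier results of these data known. Named genes are every called member and a core of textbook chaperones; of other lists, the 2 called genes with the smallest p. Further genes named with values were chosen after their values were seen. No label ties equal replicate numbers to a common culture, so they entered only as an alternative. The others were RLE, upper quartile and library size scaling, a filter of 1 CPM in 2 libraries or none, limma-voom (limma 3.58.1), DESeq2 1.42.0, robust empirical Bayes, loess offsets (span 0.3) on GC content (GENCODE 29 transcripts, 89.8% of genes tested, all 59 chaperone genes) and on length, a threshold of 0.01, read minimums of 10 and 400, and leaving out each library. Simulated data were used to test the scripts. A marker gene is not reported here. Of the 59 genes, 32 share exonic bases with another gene. Promoter windows came from RefSeq (GRCh38.p14).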

Additional observations from a re-analysis of the deposited data

How the results depend on the processing

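The 24 calls among chaperone genes were checked in 16 alternative fits: 11 held in all of them and 13 were lost in at least 1, and no called gene changed direction. Leaving out Spautin-1 replicate 1 lost 9 calls, leaving out Spautin-1 replicate 2 lost 13, and leaving out a vehicle library lost 1 each. Chaperone genes called higher ranged from 4 to 17 and those called lower from 7 to 16 over these 4 fits; over all genes the ranges were 1067 to 2981 higher and 780 to 2785 lower. At a threshold of 0.01, 1077 genes were higher and 861 lower, with 6 chaperone genes higher and 11 lower. With the replicate block, 11 chaperone genes were higher and 17 lower, and 2615 and 2485 of all genes. Deviations of libraries with the same number had a correlation of -0.00151 over 18368 genes and -0.386 over the 59 chaperone genes. With 2 libraries per group, these values cannot tell whether equal numbers mark shared cultures, so pairing stayed unknown. With the replicate block and the GC offset together, HSPA9 was called lower (-0.20, edgeR adjusted p = 0.0481), and with that pair of settings 9 chaperone genes were higher and 17 lower.

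Fold changes were followed over the fits for the called genes and the core alone. Among these, signs turned only in core genes that were not called. The signs of the other uncalled genes were not checked. HSF1 was at 0.0015 with the replicate block, 0.16 with the GC offset and 0.16 with both, and from -0.23 to 0.24 when 1 library was left out. HSF2 was at -0.015 with the GC offset and -0.029 with the replicate block added, and from -0.17 to 0.27 when 1 library was left out. HSPA1A ran from -0.085 to 0.64 and HSPB1 from -0.23 to 0.73 when 1 library was left out. The median of all genes was -0.05 with library size scaling, against -0.01 with TMM. Read minimums of 10 and 400 left both counts of called chaperone genes as they were. Low depth limits DNAJC28, DNAJC30, HSPA1A and HSPA2, with 56 to 124 reads in all. The causes were not tested.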
